A study of Rattus norvegicus with 8 samples.

Results

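Fc receptors bind the constant part of antibodies. The genes described here are receptors of that kind in rat skin, activating ones and their inhibitory counterpart. With them come signalling chains that these or other receptors pair with, the kinase of such chains, and Trem2. Trem2 is not an Fc receptor but signals through such a chain. The set held 7 genes: Fcer1g, Tyrobp, Fcgr1a, Fcgr2a, Fcgr2b, Syk and Trem2. They were chosen by name, with earlier results of these data known. A probe was assigned to one of them when the RefSeq accession on the array, without its version, belonged to that gene. This gave 6 probes of the 24684 on the array, 1 for each gene except Fcgr2b, which was not analysed here. All 6 probes were well above background in 8 of 8 samples, so all passed the filter on dim probes, which kept 21529 probes.

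Male Sprague-Dawley rats gave the tissue, skin taken through its full thickness and measured on 1-colour Agilent arrays of Cy3-labelled total RNA. Rats of the STZ group received 60 mg/kg streptozotocin, a toxin of pancreatic beta cells used to produce diabetes, into the peritoneum at 4 weeks of age. Rats of the sham group received sodium citrate solution, and skin of both groups was taken at 8 weeks of age, after 4 weeks of housing. The labels list 4 samples per group, and the files hold 2 arrays per group that were each scanned on 2 occasions, so all comparisons are of 2 STZ arrays with 2 sham arrays. The labels do not say whether an array carried RNA of 1 rat or of a pool, and their protocol also mentions a skin wound without saying whether the sampled skin was wounded. The p-values therefore measure only the spread between these arrays. In each group the arrays lay at positions that the other group did not use, so position and group cannot be told apart.

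Fcer1g encodes the common Fc receptor gamma chain and Tyrobp encodes DAP12. Both are short membrane adaptors whose cytoplasmic tail carries an immunoreceptor tyrosine-based activation motif (ITAM). When a receptor that is bound to such an adaptor is clustered by antibody or another ligand, Src-family kinases phosphorylate the ITAM and the kinase Syk docks there, which starts phagocytosis, degranulation or cytokine production. In skin these genes are used mainly by macrophages, dendritic cells, mast cells, neutrophils and natural killer cells.

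Start-site sequences are shown first because receptors of myeloid cells are commonly controlled by PU.1, an ETS-family factor whose best known core is GAGGAA. RefSeq promoters of the assembly GRCr8 were at hand for 3 of the genes, each 300 bases long, 250 before and 50 after the start site. All lie on the minus strand and are written 5′ to 3′ in the direction of transcription. Capitals mark GAGGAA or, for a match on the opposite strand, TTCCTC. The windows are chr13:85828636-85828935 for Fcgr2a, chr17:12813224-12813523 for Syk and chr9:20151730-20152029 for Trem2.
Fcgr2a: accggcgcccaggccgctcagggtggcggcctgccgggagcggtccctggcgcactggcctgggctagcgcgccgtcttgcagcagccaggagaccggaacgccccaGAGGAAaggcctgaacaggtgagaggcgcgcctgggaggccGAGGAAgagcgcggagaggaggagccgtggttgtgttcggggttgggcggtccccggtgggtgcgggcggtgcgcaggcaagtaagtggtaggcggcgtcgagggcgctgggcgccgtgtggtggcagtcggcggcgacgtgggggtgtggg
Syk: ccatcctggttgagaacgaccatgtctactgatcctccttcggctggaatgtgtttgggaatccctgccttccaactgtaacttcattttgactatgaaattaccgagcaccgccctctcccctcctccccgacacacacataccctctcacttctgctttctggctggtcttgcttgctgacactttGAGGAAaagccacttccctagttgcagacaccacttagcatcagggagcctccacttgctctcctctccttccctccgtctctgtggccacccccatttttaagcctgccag
Trem2: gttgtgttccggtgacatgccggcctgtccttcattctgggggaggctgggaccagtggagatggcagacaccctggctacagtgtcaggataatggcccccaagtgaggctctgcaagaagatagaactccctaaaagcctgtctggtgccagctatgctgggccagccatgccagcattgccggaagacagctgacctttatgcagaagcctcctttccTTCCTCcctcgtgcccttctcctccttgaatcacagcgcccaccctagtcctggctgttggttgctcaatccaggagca
The Fcgr2a window held 2 matches, at bases 108 to 113 and 149 to 154. The Syk window held 1 match, at bases 189 to 194, and the Trem2 window held 1, at bases 222 to 227 on the opposite strand. GAGGAA occurred on either strand in 27.5% of the 27457 promoters in the same table. The interferon-stimulated response element was searched on both strands as GAAA, 2 bases of any kind and GAAA. It was in 3.77% of promoters and not in these 3 windows. The motif named GAS, searched in the same way as TTCNNNGAA with N for any base, was in 8.68% of promoters. It was not in these 3 windows either. A match is a description of letters and not evidence of binding.

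Across the arrays, 20267 to 22889 probes per sample were well above background. Over the tested probes, log2 differences had an SD of 1.17 between STZ samples 1 and 2. Between STZ sample 1 and sham samples 1 and 2 it was 1.04 and 1.13, and between STZ sample 2 and these it was 1.45 and 1.65. The 75th percentile of the spot signals, which set each array's scale, ranged from 606 to 1496 units. This percentile was 606 and 624 in the scans of STZ array 2 and 1138 or more in all others. Levels below are log2 intensities relative to that percentile, so 1 unit is a 2-fold difference, and levels of different probes are not compared. The median probe was 0.23 higher in STZ than in sham, and every change given below is relative to that median. No probe passed an adjusted p of 0.05 in limma's moderated test with Benjamini-Hochberg adjustment over all probes tested, the smallest adjusted p being 0.0758. At an unadjusted p under 0.05, 1572 probes were higher in STZ and 757 were lower. The higher share of these was 67.5%, against 51.8% after quantile normalization and 46.1% after normexp background correction with quantile normalization. With 2 arrays against 2, an exact permutation test of a single gene cannot go below p = 0.333. The labelled tissue carried its defining markers on all arrays. The basal keratinocyte keratin Krt14 was at 7.27 and 7.35 on the STZ arrays, against 7.15 and 5.54 on the sham arrays. The collagen chain Col1a2 of fibroblasts was at 7.21 and 8.08, against 7.22 and 7.31. These levels are given for presence only. Of 5 tested keratinocyte markers, 2 were higher and 3 lower in STZ (median change -0.81), and of 6 fibroblast markers, 5 were higher and 1 lower (0.58).

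All 6 measured genes of the set had higher signals in STZ skin than in sham skin, with changes between 1.29 for Syk and 3.57 for Fcgr2a on the log2 scale and a median of 2.98. Both STZ arrays lay above both sham arrays for 6 of 6 genes, an arrangement found for 26.8% of all tested probes. At an unadjusted p under 0.05, 6 of 6 were higher, against 7.3% of all tested probes, and 0 of 6 were lower, against 3.52%. The set was chosen with earlier results of these data known, so these counts describe it and test nothing. Their limma adjusted p-values lay between 0.144 and 0.354. None passed the adjusted threshold, so the changes are given as values. Because the skin was measured as a whole, more cells that carry these transcripts and more transcript per cell cannot be told apart.

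The adaptors come first. Fcer1g, which carries the ITAM for the high-affinity IgE receptor, for FcgammaRI and for several lectin receptors, was at 3.28 and 3.78 on the STZ arrays, against 0.68 and -0.00049 on the sham arrays. The lowest STZ array was 2.59 above the highest sham array, so the groups did not overlap. Its change was 2.96 ± 0.49 (SE, n = 2 arrays per group, limma adjusted p = 0.144), or 7.77-fold. In the scanner's own units its 4 STZ samples read between 8248 and 14476, against 1298 to 1879 in the 4 sham samples.

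Tyrobp, the DAP12 adaptor of TREM and natural killer receptors, was at 5.63 and 6.01 on the STZ arrays, against 3.23 and 2.12 on the sham arrays. Its STZ arrays differed from each other by less than its sham arrays did, and the groups were separated by 2.40. The change was 2.91 ± 0.55 (SE, n = 2 arrays per group, limma adjusted p = 0.171), or 7.54-fold. The difference between the changes of both adaptors was 0.04, smaller than either standard error.

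Among the receptors for IgG, Fcgr1a encodes FcgammaRI, the high-affinity receptor that binds monomeric IgG. It was at 2.44 and 2.72 on the STZ arrays, against 0.03 and -1.34 on the sham arrays. Both STZ arrays were high and close together, while the sham arrays lay 1.37 apart. The change was 3.0 ± 0.60 (SE, n = 2 arrays per group, limma adjusted p = 0.172), or 8.01-fold.

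Fcgr2a encodes a low-affinity IgG receptor. It was at 2.23 and 1.23 on the STZ arrays, against -1.46 and -2.67 on the sham arrays. Its change was 3.57 ± 0.65 (SE, n = 2 arrays per group, limma adjusted p = 0.161), or 11.9-fold. This was the largest of the 6 on all arrays, but not without STZ array 1. There it was 2.91, below Trem2 (3.76), Fcer1g (3.05), Fcgr1a (2.99) and Tyrobp (2.95). Its arrays within each group differed by 1.0 in STZ and 1.21 in sham. RefSeq also lists Fcgr3 and Fcgr3a among the older names of this rat gene, while a separate gene Fcgr3a had a probe of its own. That low-affinity IgG receptor was at 1.77 and 1.03 on the STZ arrays, against -2.99 and -3.43 on the sham arrays, a change of 4.38 ± 0.50 (SE, n = 2 arrays per group, limma adjusted p = 0.102). Low-affinity Fc gamma receptors are closely related in sequence, and cross-hybridisation between their probes was not tested.

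Trem2 encodes a receptor for lipids, lipoproteins and cell debris on tissue macrophages that signals through DAP12. It was at 2.99 and 4.14 on the STZ arrays, against 0.53 and -0.53 on the sham arrays. The STZ arrays lay 1.15 apart, the widest spacing among the 6 genes in that group, yet the lower of them was 2.46 above the higher sham array. The change was 3.34 ± 0.64 (SE, n = 2 arrays per group, limma adjusted p = 0.172), or 10.1-fold.

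Syk, the kinase that binds phosphorylated ITAMs, was at 1.26 and 0.95 on the STZ arrays, against -0.09 and -0.73 on the sham arrays. The groups did not overlap, but the gap between them was 1.04, smaller than for any other gene of the set. Its change was 1.29 ± 0.47 (SE, n = 2 arrays per group, limma adjusted p = 0.354), or 2.45-fold. The unadjusted p of Syk was 0.0232, and it was 0.0552 without STZ array 1, 0.0596 without sham array 1 and 0.172 without sham array 2.

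**Figure D1:**
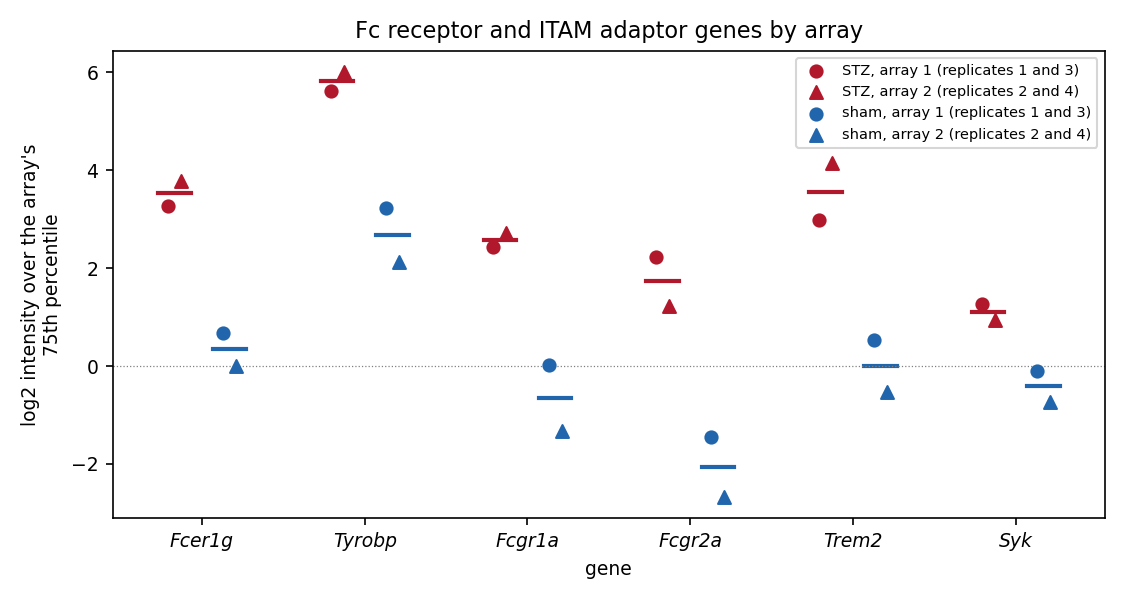
Level of each measured gene on each array (log2 intensity relative to the array's 75th percentile), STZ arrays left of sham arrays; each point is 1 array, the mean of its 2 scans. For each of the 6 genes both STZ arrays sit above both sham arrays, with the narrowest gap for Syk (1.04).

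The changes of 5 of the 6 genes lay between 2.91 and 3.57, and Syk stood below them by 1.62 against Tyrobp and by up to 2.28 against Fcgr2a. No test of these differences was made. The profiles over the 4 arrays, each centred on its own mean, were closest for Tyrobp and Fcgr1a, with a root mean square distance of 0.11, followed by Fcer1g and Tyrobp at 0.16. They were farthest apart for Fcgr2a and Syk, at 1.18. Among all 21529 tested probes, 215 had a higher change than Fcgr2a, 265 than Trem2, 374 than Fcgr1a, 387 than Fcer1g, 408 than Tyrobp and 2260 than Syk.

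**Figure D2:**
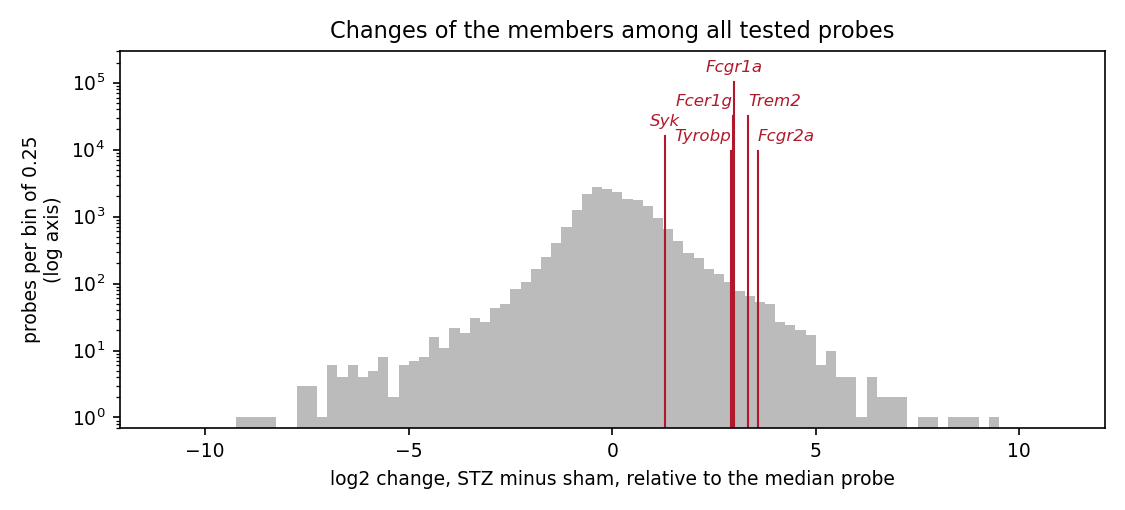
Distribution of the log2 changes, STZ against sham and relative to the median probe, over all 21529 tested probes, as probes per bin on a log axis, with the 6 genes of the set marked by lines whose height has no meaning. Syk (1.29) lies nearer to the bulk of the probes than the other genes, which lie between 2.91 and 3.57.

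The arrays within a group did not line up in the same way for STZ and sham. In sham skin all 6 genes were higher on array 1 than on array 2, by 0.64 for Syk to 1.37 for Fcgr1a. In STZ skin Fcgr2a and Syk were higher on array 1, by 1.0 and 0.31, and the other 4 genes were higher on array 2, by 0.28 for Fcgr1a to 1.15 for Trem2. Over all tested probes the median difference of array 1 over array 2 was -0.34 in STZ, near the values of Tyrobp and Fcgr1a, and 0.03 in sham. Marker lists also differed between the same arrays. The median difference of array 1 over array 2 in STZ was 0.51 for 8 neutrophil markers, -0.15 for 13 macrophage markers and -1.33 for 5 natural killer markers, and in sham it was 0.10, 0.58 and 1.02 for the same lists. The part of these shifts in the genes' values was not tested.

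The genes whose profile over the 4 arrays was most like the mean profile of the set were C8h19orf38, Ripk3, Il22ra2, Klra5, Glipr1, Cd300lf, Plek, Slc15a3, Siglec5 and Bco2, with root mean square distances from 0.083 to 0.15. Ripk3 encodes the kinase of necroptosis, Il22ra2 a soluble interleukin-22 antagonist, Plek a protein kinase C substrate of platelets and leukocytes, Slc15a3 a lysosomal peptide and histidine transporter, and Bco2 a carotenoid-cleaving enzyme. Cd300lf and Siglec5 encode receptors with inhibitory tyrosine motifs. Their changes lay between 2.65 and 3.09. Ripk3 was at 2.55 and 2.51 on the STZ arrays, against -0.01 and -1.13 on the sham arrays, and Plek was at 4.14 and 4.68, against 1.88 and 0.81. Likeness over 4 arrays of 2 groups is a description, since a large difference between the groups sets most of it.

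Receptors that borrow the gamma chain or DAP12 were mostly higher in STZ as well. The list of them also held Hcst, the adaptor DAP10, with a change of 2.47, and Klrd1, a partner chain of such receptors, with 2.95. Of 16 tested genes of this list, 14 were higher, 12 of them at an unadjusted p under 0.05, and the median change was 2.29. Over all tested probes, 50% were higher relative to the median, and 7.3% were higher at an unadjusted p under 0.05. Fcar and Klrc2 passed the filter on dim probes only through their STZ samples and so had to differ; without them 12 of 14 were higher, 10 at an unadjusted p under 0.05, with a median of 1.99. Without sham array 2, 7 genes had an unadjusted p under 0.05, and under normexp with quantile normalization the median was 1.06. Clec4e, the Mincle lectin that senses mycobacterial glycolipid and dead cells through the gamma chain, was at 2.77 and 1.49 on the STZ arrays, against -3.61 and -5.57 on the sham arrays, a change of 6.49 ± 0.85 (SE, n = 2 arrays per group, limma adjusted p = 0.11). Clec4d, its partner MCL, well above background in 3 of 4 sham samples, was 5.98 ± 0.55 higher (SE, n = 2 arrays per group, limma adjusted p = 0.1), and 3.50 under normexp with quantile normalization. Klrk1, the NKG2D receptor of natural killer and T cells, was at -1.82 and -0.40 on the STZ arrays, against -2.40 and -1.64 on the sham arrays, and its groups overlapped, with a change of 0.68 ± 0.65.

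The IgE receptor of mast cells and basophils shares the gamma chain, and the changes of its other chains were below 0. Fcer1a, its IgE-binding alpha chain, was at -3.33 and -2.84 on the STZ arrays, against -1.34 and -2.44 on the sham arrays, a change of -1.42 ± 0.56 (SE, n = 2 arrays per group, limma adjusted p = 0.533). Both STZ arrays were below both sham arrays, an arrangement found for 17.9% of tested probes. Ms4a2, its beta chain, named after its values were seen, was at -2.26 and -1.51 on the STZ arrays, against -0.99 and -2.34 on the sham arrays. Its groups overlapped, and its change of -0.45 ± 0.64 turned to 0.26 without sham array 1.

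Fc receptors that do not use an ITAM adaptor had a median change of 0.65. Of 8 tested genes, 7 were higher in STZ, against 50% of all tested probes. The median was 0.25 without sham array 2. Of the 8, 1 was higher at an unadjusted p under 0.05, against 7.3% of all tested probes. It was Fcrla, an intracellular Fc receptor-like protein of B cells, with a change of 2.67 ± 0.73. Fcgrt, the neonatal Fc receptor that recycles IgG, was at 3.39 and 4.02 on the STZ arrays, against 3.32 and 2.44 on the sham arrays, a change of 0.60 ± 0.53. Pigr, the epithelial transporter of polymeric IgA and IgM, was well above background in 2 of 4 sham samples and had a change of 0.79 ± 0.65 that turned to -0.23 under quantile normalization and to -0.048 under normexp with quantile normalization. Fcmr, the IgM receptor, Fcer2, the low-affinity IgE receptor CD23, and the Fc receptor-like gene Fcrl2 had changes of -0.37, 0.75 and 0.68, and Fcrl2 was at -0.049 without sham array 2.

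Around Syk, 17 of 24 tested kinases and adaptors were higher in STZ, against 50% of all tested probes, with a median change of 1.01. At an unadjusted p under 0.05, 10 of them were higher, against 7.3% of all tested probes. The median change was 0.64 under normexp with quantile normalization, and it was 0.51 without sham array 2. Lyn, a Src-family kinase that phosphorylates ITAMs in myeloid cells, was at -0.38 and -1.17 on the STZ arrays, against -2.85 and -3.03 on the sham arrays. Its groups did not overlap, and its change was 1.94 ± 0.49 (SE, n = 2 arrays per group, limma adjusted p = 0.22). Btk, a Tec-family kinase downstream of Syk, and Card9, which links Syk to NF-kappaB, had changes of 1.34 and 1.36, neither at an unadjusted p under 0.05. Leaving out 1 array gave 0.40 to 2.28 for Btk and 0.57 to 2.14 for Card9. Plcg2, the phospholipase that Syk and Btk activate, was at 1.04 and 0.43 on the STZ arrays, against 0.93 and 0.06 on the sham arrays. Its change was 0.01, and it was -0.13 without the filter on dim probes and -0.45 without STZ array 1 or without sham array 2.

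Inhibitory receptors and many phosphatases oppose ITAM signals. The list of them also held the kinase Csk, the ubiquitin ligase Cblb and the adaptors Dok1, Dok2 and Dok3. Of 22 tested, 19 were higher in STZ, against 50% of all tested probes, and the median change was 0.87. At an unadjusted p under 0.05, 9 of them were higher, against 7.3% of all tested probes. Lilrb4, an inhibitory receptor of myeloid cells, was at 3.73 and 3.87 on the STZ arrays, against -2.09 and -3.96 on the sham arrays, a change of 6.59 ± 0.72 (SE, n = 2 arrays per group, limma adjusted p = 0.102). Inpp5d, the lipid phosphatase SHIP-1, was 2.21 ± 0.46 higher (SE, n = 2 arrays per group, limma adjusted p = 0.173). Ptpn6, the tyrosine phosphatase SHP-1, Sirpa, the receptor for CD47, and Lair1, a collagen receptor, had changes of 0.78, 0.41 and 1.03, and Sirpa was at -0.057 without sham array 2.

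The ITAM chains of lymphocytes were higher too. Over all tested probes, 50% were higher relative to the median, and 7.3% were higher at an unadjusted p under 0.05. All 5 tested chains had an unadjusted p under 0.05, and not all of them did so without sham array 1 or without sham array 2. Of the 5, Cd79b passed the filter on dim probes only through its STZ samples and so had to differ. Cd3e, Cd3d, Cd3g and Cd247, chains of the T cell receptor complex, had changes of 2.76, 1.94, 1.98 and 2.28. Cd3e was at -0.66 and 0.16 on the STZ arrays, against -2.69 and -3.78 on the sham arrays. Cd79b, a chain of the B cell receptor, had no sham sample well above background. Its STZ level was at least 3.42-fold higher relative to the median probe, with a limma adjusted p of 0.342 and a change of 0.16 under normexp with quantile normalization.

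Genes associated with TREM2-bearing macrophages ranged from -1.01 to 8.73 in their change. Of 13 tested, 10 were higher in STZ, against 50% of all tested probes, with a median change of 0.29. At an unadjusted p under 0.05, 2 were higher, against 7.3% of all tested probes. Leaving out 1 array moved the median to 0.13 (without STZ array 1) and 0.50 (without STZ array 2), and it was 0.46 under normexp with quantile normalization. The 2 genes were Spp1, the secreted matrix protein osteopontin, and Cst7, the protease inhibitor cystatin F. Spp1 was at 6.09 and 6.85 on the STZ arrays, against -1.25 and -3.73 on the sham arrays, a change of 8.73 ± 0.92 (SE, n = 2 arrays per group, limma adjusted p = 0.102), and Cst7 was 2.50 ± 0.59 higher. Gpnmb, a lysosomal glycoprotein, was at 7.16 and 7.36 on the STZ arrays, against 6.33 and 6.65 on the sham arrays, a change of 0.54 ± 0.43. Apoe, a lipoprotein component and TREM2 ligand, had a change of -0.07, and Lpl, lipoprotein lipase, of -1.01. The value of Apoe was above 0 after quantile normalization (0.14), after normexp with quantile normalization (0.16) and without STZ array 2 (0.44).

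**Figure D3:**
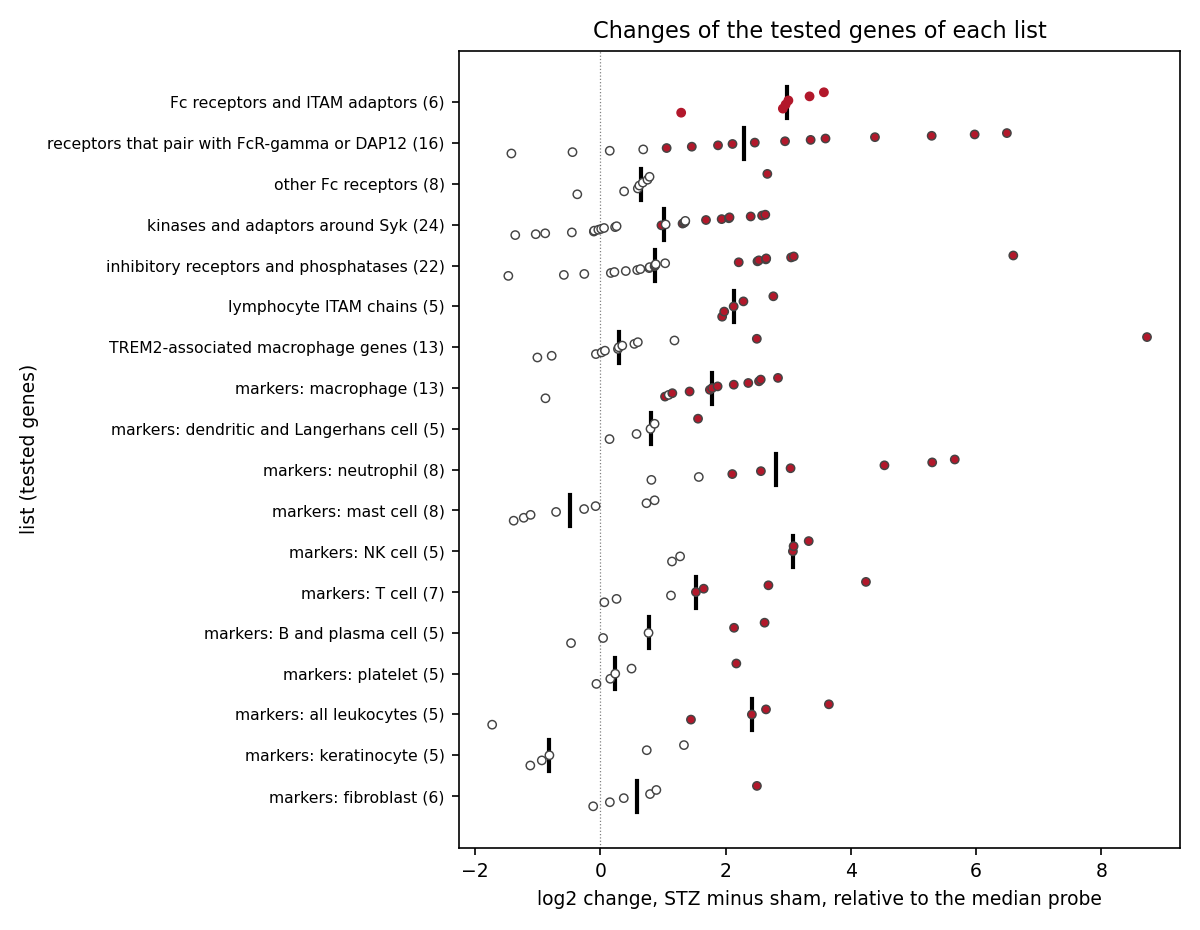
Log2 changes, STZ against sham and relative to the median probe, of the tested genes in each pathway list and cell type marker list; each point is 1 gene, filled where the unadjusted p is under 0.05, and black bars are list medians. The set (median 2.98) and the list of receptors that pair with its adaptors (2.29) lie above the Fc receptors without an ITAM adaptor (0.65) and the TREM2-associated genes (0.29). The 2.29 was 1.99 without Fcar and Klrc2, which passed the filter only through STZ samples, and 1.06 under normexp with quantile normalization.

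Markers of cell types that carry these genes were read on the same arrays. Over all tested probes, 50% were higher relative to the median. At an unadjusted p under 0.05, 7.3% were higher and 3.52% lower. These shares are the baseline for the counts of every marker list. Of 13 tested macrophage markers, 12 were higher in STZ and 11 had an unadjusted p under 0.05, with a median change of 1.79. Their summed linear level, in multiples of the 75th percentile, was 331 and 472 on the STZ arrays, against 126 and 76.1 on the sham arrays. The defining markers Cd68, Adgre1 and Csf1r, a lysosomal protein, the F4/80 antigen and the CSF1 receptor, had changes of 2.53, 1.79 and 1.09.

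The pan-leukocyte genes Ptprc, Cd53, Laptm5 and Coro1a had changes of 2.64, 3.65, 1.45 and 2.42, all with an unadjusted p under 0.05, and the fifth, Cd52, was at -1.73. Laptm5 was no longer under that threshold without STZ array 1 (change 0.89) or without sham array 2 (change 0.99). Their sum was 47.5 and 48.8 on the STZ arrays, against 9.28 and 4.06 on the sham arrays.

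All 8 tested neutrophil markers were higher in STZ, with a median of 2.80 and a sum of 60.3 and 66.2 on the STZ arrays, against 1.61 and 1.41 on the sham arrays. Among them Fpr1 passed the filter on dim probes only through its STZ samples. S100a8 alone made up 85.4% to 97.2% of that sum, and the median was 1.82 under normexp with quantile normalization. Csf3r, the G-CSF receptor, Cxcr2, the receptor for neutrophil chemokines, and S100a8, a calprotectin chain, had changes of 4.54, 2.11 and 5.30. All 5 natural killer markers were higher, 3 of them at an unadjusted p under 0.05, with a median of 3.07 that was 1.70 under normexp with quantile normalization. Klrb1a and perforin (Prf1) had changes of 1.27 and 1.14 and did not pass that threshold, and granzyme B (Gzmb) had 3.07. All 7 T cell markers were higher, with a median of 1.53 that was 0.75 under the same setting, and Cd2, Cd5 and Cd4 had changes of 2.68, 1.53 and 1.13. Of 8 mast cell markers, 2 were higher and 0 were past an unadjusted p of 0.05 in either direction by limma, the median was -0.48 and the sum was 12.3 and 16.9 on the STZ arrays, against 30.3 and 15.9 on the sham arrays. The mast cell proteases Cpa3, Tpsab1 and Tpsb2 had changes of -1.38, 0.74 and -0.08, and Tpsb2 was at 0.27 after quantile normalization. The median changes were 0.80 for 5 dendritic and Langerhans cell markers, 0.77 for 5 B and plasma cell markers, 0.24 for 5 platelet markers, 0.58 for 6 fibroblast markers and -0.81 for 5 keratinocyte markers. Leaving out 1 array gave 0.45 to 1.19 for the dendritic list, 0.22 to 1.35 for the B cell list, -0.25 to 0.64 for the platelet list, 0.48 to 0.89 for the fibroblast list and -1.30 to 0.52 for the keratinocyte list. How far the markers' differences account for those of the set was not tested.

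Over 17 other ways of processing the same scans, the change of Fcer1g lay between 2.59 and 3.33, of Tyrobp between 2.33 and 3.50, of Fcgr1a between 2.29 and 3.71, of Fcgr2a between 2.91 and 4.27, of Trem2 between 2.78 and 3.90 and of Syk between 0.94 and 1.64. All 6 genes passed an adjusted p of 0.05 only where scans of 1 array were entered as separate samples.

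**Figure D4:**
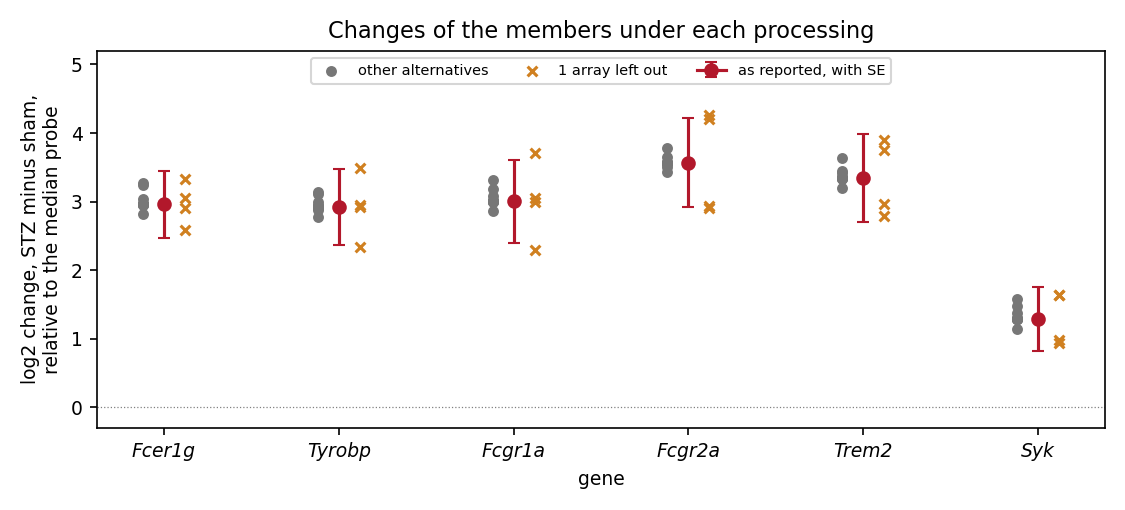
Log2 change of each of the 6 genes, STZ against sham and relative to the median probe, as reported (large points, bars are the SE), with 1 array left out (crosses) and under the other alternatives (grey points), 17 in all. Every value is above 0, and the lowest is 0.94, for Syk.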

How the data were processed

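Feature Extraction 11.0.1.1 of Agilent produced the spot values, per the file headers; the submitters' processing notes give 11.0.0.1. The deposited intensity used is the scanner software's processed signal, from which background was subtracted and which no step put on a common scale across arrays, per the file headers. The deposited raw spot and local background intensities served 1 alternative. The deposited flags are other values, 0 or 1 per spot. No other processing step by the authors is given in the sources used here.

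Processed signals were taken to log2, each sample's 75th percentile over 42136 noncontrol spots was subtracted, and spots of a probe were averaged without outlier flags. Over 10765 spots of probes with at least 3 spots, deviations from the probe mean correlated at 0.978 or more for replicate 1 with 3 and replicate 2 with 4 of a group. Other pairs reached at most 0.699. The headers give each such pair 1 array position, so they were averaged as rescans of 1 array (array 1 holds replicates 1 and 3, array 2 holds replicates 2 and 4). The filter kept probes that were above background in 4 or more of the 8 samples, which were tested two-sidedly with limma 3.58.1 in R 4.3.3 (lmFit, eBayes, Benjamini-Hochberg over all tested probes), after the code was tested on simulated data. A p refers to the 75th percentile scale, and 0.23, the median over all tested probes, was subtracted from every printed change. No spot was saturated, and the number of arrays limits precision.

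Where a group had no sample above background, its probe was given a bound, the bright group's mean against the higher, per array, of its own signal and the lowest signal well above background. Probes were named through RefSeq (GRCr8; 14274 of 15323 coding accessions matched); the headers name the build rn4, so no probe coordinates are given. The genes and lists were chosen with earlier results of these data known. Named genes were all 7 of the set, the first 5 tested of each pathway list, the first 3 of the macrophage, leukocyte, neutrophil, mast, natural killer and T cell marker lists and the 10 most alike in profile; the rule also covered 3 genes of each remaining marker list, which are given by their medians, and others were chosen after their values were seen. Where a list shares genes with those most alike (Cd300lf, Siglec5), they count in both. Some genes that the rule covers are not reported here.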

Additional observations from a re-analysis of the deposited data

How the results depend on the processing

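The limits are 2 arrays per group and an outcome that moves with single arrays. Of 17 alternatives, 14 were listed beforehand and 3 were chosen after seeing the data (crossed array numbers, centring on the median probe, the scan as a block); averaging all probes of a gene was not run, since each gene of the set has 1 probe. The 6 genes kept their direction under all 17 and their side of an adjusted p of 0.05 under 15, the exceptions being the fits of 8 separate samples. Over these alternatives the adjusted p ranged from 0.000129 to 0.998 for Fcer1g and from 0.00197 to 0.998 for Syk. With 8 separate samples 5236 probes had an adjusted p under 0.05, 5318 were higher and 3319 lower at an unadjusted one; with the scan as a block the counts were 3532, 4447 and 2878. Centring each array on its median probe gave 125 probes at an adjusted p under 0.05. The lower probes numbered 1149 after quantile normalization and 1344 after normexp with quantile normalization. Leaving out 1 array gave 0 to 49 probes at an adjusted p under 0.05 (49 without STZ array 1), 677 (without sham array 2) to 5380 (without STZ array 1) higher, 1031 without sham array 1, and 305 (without sham array 2) to 1094 lower, 367 without sham array 1; the median of the set lay between 2.46 and 3.60. With the array number as a replicate block, 1568 probes were higher and 589 lower, and no gene of the set crossed the threshold; same-numbered arrays did not deviate together (correlation -0.20), and the crossed pairing gave 2082 and 761. Values that changed sign were those of Pigr (-0.23 after quantile normalization, -0.048 after normexp), Apoe (0.14 and 0.16 under these settings, 0.0081 with probes above background in all 8 samples) and Plcg2 (-0.13 without a filter). The value of Tpsb2 was 0.27, 0.19 and 0.0036 under the settings that turned Apoe, and -0.27 to 0.12 on leaving out 1 array (above 0 without STZ array 1 and without sham array 1). Values that changed sign on leaving out 1 array ranged from -0.54 to 0.44 (Apoe, the highest without STZ array 2), -0.45 to 0.52 (Plcg2, -0.45 without STZ array 1 and without sham array 2), -1.15 to 0.26 (Ms4a2, the highest without sham array 1), -0.049 to 1.41 and -0.057 to 0.87 (Fcrl2 and Sirpa, the lowest without sham array 2). The medians of the platelet (-0.25 to 0.64) and keratinocyte (-1.30 to 0.52) markers turned without STZ array 2. Under normexp the median of the B cell markers was 0.32. Without sham array 2, Lyn, Cd3d, Cd3g, Cd5 and Fcrla, and without sham array 1, Cd3d, Cd79b and Cxcr2, were no longer at an unadjusted p under 0.05; nor was Cd79b without STZ array 2. The causes were not tested.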

Other observations

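Some further receptors that pair with the adaptors were picked after their values were seen. Fcar, the IgA receptor of myeloid cells, was at -2.70 and -3.17 on the STZ arrays, against -9.04 and -7.86 on the sham arrays, where no sample was well above background. It was at least 21.3-fold higher in STZ relative to the median probe (limma adjusted p = 0.102), and its change of 5.29 was 1.37 under normexp with quantile normalization. Klrc2, the NKG2C receptor of natural killer cells, was at least 8.82-fold higher on the same scale (limma adjusted p = 0.171), also with no sham sample above background. Its bound of 3.14 in log2 did not hold under normexp with quantile normalization either, where its change was 0.72. Clec5a, a DAP12-coupled lectin of myeloid cells, was well above background in 4 of 4 sham samples and was at -1.43 and -1.92 on the STZ arrays, against -4.96 and -6.03 on the sham arrays, with changes between 2.01 and 4.16 over the 17 alternatives.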
